A study of Mus musculus with 6 samples.

Results

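The 42 genes described here encode the machinery by which the endoplasmic reticulum (ER) folds secreted proteins, responds to folding stress and exports procollagen. They were selected by gene symbol from the 49548 genes of the count table, as 10 ER chaperones and cofactors, 3 protein disulfide isomerases, 6 sensors and transcription factors of the unfolded protein response (UPR), 3 ATF4 targets, 4 genes of ER-associated degradation, 2 Sec61 translocon subunits, 7 genes of the COPII coat and procollagen export, 5 cargo and KDEL receptors and 2 CREB3L transcription factors. All 42 passed the minimum of 10 counts in 2 or more libraries and were among the 15789 genes tested. The mRNA was of native cardiac fibroblasts (CFs) from C57BL/6J mice aged 5 weeks, in 3 WT and 3 CharmeKO libraries. CharmeKO mice carry a polyadenylation signal inserted into the locus of *Charme*, a long noncoding RNA of cardiomyocytes, in every cell of the body, and neither group received a treatment. The hearts were dissociated with enzymes and hematopoietic cells were depleted, whereas the labels also list a growth medium. The groups were compared for a difference in gene expression of CFs in the absence of the lncRNA.

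Proteins that enter the ER through the Sec61 channel are folded by the Hsp70 chaperone BiP, the Hsp90 chaperone Grp94, the lectin chaperones calnexin and calreticulin and the disulfide isomerases. When unfolded proteins accumulate, the sensors IRE1, PERK and ATF6 activate XBP1, ATF4 and the cleaved ATF6, which raise the transcription of chaperones, of degradation factors and of amino acid metabolism genes. Folded cargo leaves in vesicles coated with COPII, of which procollagen needs an enlarged form, and escaped chaperones are returned by KDEL receptors. CFs are the main collagen secreting cells of the heart.

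The motifs through which the UPR transcription factors are known to bind were sought in the promoter windows of RefSeq on GRCm38.p6, from 250 bases before to 50 bases after each start, and 36 of the 42 members had a window. *Atf6*, *Manf*, *Creb3l1*, *Lman1*, *Sec61a1* and *Kdelr2* had none. The ER stress response element (ERSE), bound by ATF6 and by XBP1, was searched on both strands as CCAAT and CCACG with 9 bases of any kind between them. It was present in 8 of the 36 members and in 0.119% of the 32851 windows of all genes. The first share counts genes, which had 37 windows, and the second counts windows. The members were selected for roles in this pathway, so the shares are not a test of enrichment. The sites of these members are shown 5′ to 3′ on the strand of the gene, because most of them belong to chaperone genes, with the letters of the motif in capitals and 12 bases on each side. The second of the 2 *Hsp90b1* sites, and those of *Calr* and *Creld2*, lie on the opposite strand and therefore read as the reverse complement.
Hspa5, chr2:34772013-34772055, plus strand: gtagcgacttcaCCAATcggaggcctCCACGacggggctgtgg
Hsp90b1, chr10:86705626-86705668, minus strand: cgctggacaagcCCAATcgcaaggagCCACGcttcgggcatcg
Hsp90b1, chr10:86705521-86705563, minus strand: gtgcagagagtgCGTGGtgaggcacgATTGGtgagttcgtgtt
Calr, chr8:84847063-84847105, minus strand: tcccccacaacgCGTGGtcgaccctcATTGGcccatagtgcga
Canx, chr11:50325788-50325830, minus strand: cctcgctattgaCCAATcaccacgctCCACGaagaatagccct
Dnajc3, chr14:118937815-118937857, plus strand: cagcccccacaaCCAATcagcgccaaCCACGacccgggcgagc
Pdia6, chr12:17266479-17266521, plus strand: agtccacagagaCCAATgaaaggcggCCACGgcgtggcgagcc
Creld2, chr15:88819508-88819550, plus strand: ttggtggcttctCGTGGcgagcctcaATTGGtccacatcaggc
Syvn1, chr19:6046520-6046562, plus strand: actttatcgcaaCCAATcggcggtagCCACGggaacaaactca

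The related ERSE-II, ATTGG and CCACG with 1 base of any kind between them, was present in *Dnajb11* and *Herpud1* and in 0.0365% of all windows. The UPR element (UPRE), TGACGTGG, to which XBP1 binds, was present in *Kdelr3*, *Sec23a* and *Sec24d* and in 0.676% of all windows. ERSE, ERSE-II and UPRE overlap in letters, since all hold CCACG on one strand. The UPRE sites of *Kdelr3* and *Sec24d* are shown because these genes had the most negative fold changes of the 42. The site of *Kdelr3* is on the opposite strand.
Kdelr3, chr15:79516366-79516397, plus strand: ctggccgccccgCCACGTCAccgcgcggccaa
Sec24d, chr3:123267458-123267489, plus strand: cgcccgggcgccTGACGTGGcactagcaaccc

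The composite element of ATF4 and C/EBP, searched as TGATGNAA on both strands, was present in *Asns*, *Chac1*, *Herpud1*, *Kdelr1* and *Trib3* and in 3.97% of all windows. The sites of *Asns* and *Chac1*, amino acid metabolism genes driven by ATF4, are shown with the motif in capitals and its free position in lower case, that of *Chac1* on the opposite strand.
Asns, chr6:7693213-7693244, minus strand: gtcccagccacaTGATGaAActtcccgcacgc
Chac1, chr2:119351037-119351068, plus strand: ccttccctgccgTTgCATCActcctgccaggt

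The 250 bases before the starts of *Hspa5* and *Kdelr3* are shown whole, as the most abundant member and the member with the largest fold change, with the ERSE and the UPRE in capitals.
Hspa5, chr2:34771840-34772089, plus strand: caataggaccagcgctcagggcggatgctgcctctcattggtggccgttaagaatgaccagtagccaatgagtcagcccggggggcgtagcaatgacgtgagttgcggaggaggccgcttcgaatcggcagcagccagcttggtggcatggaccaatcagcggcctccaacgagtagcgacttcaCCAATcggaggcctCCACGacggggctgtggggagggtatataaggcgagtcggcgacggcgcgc
Kdelr3, chr15:79516158-79516407, plus strand: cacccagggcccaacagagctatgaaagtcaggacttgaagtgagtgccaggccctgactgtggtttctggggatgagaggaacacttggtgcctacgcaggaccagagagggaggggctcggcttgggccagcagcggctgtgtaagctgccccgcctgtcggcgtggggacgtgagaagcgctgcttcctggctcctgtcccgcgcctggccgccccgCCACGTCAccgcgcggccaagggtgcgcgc

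The reads counted on genes numbered 9595701 to 42101393 in WT and 23550718 to 31048606 in CharmeKO, and a count of 0 allowed up to 3 counts, which is 0.0713 to 0.313 CPM and covers counting error only. *Charme* had 26, 15 and 4 counts in WT replicates 1, 2 and 3 and 7, 0 and 0 counts in CharmeKO replicates 1, 2 and 3. Fibroblast markers were abundant, with a summed level of the 10 genes of 40306 to 43139 CPM in WT and 33386 to 41783 CPM in CharmeKO, and 0 of them passed the adjusted threshold in edgeR and 1, *Col1a1*, in DESeq2, where it was lower. No marker of any cell type list was at 0 in all 6 libraries. The 10 endothelial markers summed to 8629.8 to 10582 CPM in WT and 9301 to 11742 CPM in CharmeKO, with 0 past the threshold in edgeR and 1, *Vwf*, lower in DESeq2. The direction of *Vwf* was not that of most of this list. Of the endothelial markers 7 had a positive and 3 a negative fold change, with a median of 0.28 on the log2 scale. All 10 cardiomyocyte markers had a positive fold change, 2 of them, *Myh6* and *Tnni3*, passed the adjusted threshold in edgeR and 5 in DESeq2, and their sum was 315 to 395 CPM in WT and 447 to 671 CPM in CharmeKO. Of the 20 genes of the response to dissociation, 2 were higher, the cytosolic Hsp70 genes *Hspa1a* and *Hspa1b*, while their sum was 39221 to 57555 CPM in WT and 44383 to 50498 CPM in CharmeKO. Among 5 epicardial genes *Wt1* was lower and the sum was 56.9 to 71.4 CPM in WT and 34.0 to 40.6 CPM in CharmeKO. Of the lists of pericyte and smooth muscle, leukocyte, erythroid, Schwann and plasma cell genes, 0 genes passed the adjusted threshold in edgeR and 1, *Cspg4* of pericytes, was lower in DESeq2. Among the 10 pericyte and smooth muscle genes 6 had a positive and 4 a negative fold change, with a median of 0.11 on the log2 scale. Erythroid transcripts were abundant as well, with a sum of 6 genes of 26762 to 39193 CPM in WT and 24402 to 31731 CPM in CharmeKO. Of the fibroblast sum, *Gsn* alone held 17330 to 26439 CPM in WT and 20083 to 22380 CPM in CharmeKO. The libraries also differed in *Xist* and Y-linked transcripts within both groups. WT replicates 2 and 3 and CharmeKO replicate 3 held 886 to 2967 Y-linked counts, and the other 3 libraries held 9196 to 16783 *Xist* counts. CharmeKO replicate 1, with 13553 *Xist* counts, also held 136 Y-linked counts, and WT replicate 2 held 67 *Xist* counts. The part of these differences in the values below was not tested, other than by a term for the *Xist* and Y-linked split and by leaving out each library.

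None of the 42 members passed an adjusted p of 0.05 between CharmeKO and WT in edgeR's quasi-likelihood test, where 0.83% of all tested genes did, 0.418% higher and 0.412% lower. At an unadjusted p under 0.05, 3 members (7.14%) were lower, *Kdelr3*, *Sec61a1* and *Sec24d*, and 0 were higher, against 12.8% of all tested genes, 6.87% lower and 5.9% higher. DESeq2 called 0 members as well, against 2.5% of all genes, and had 4 members at an unadjusted p under 0.05, the same 3 and *Hsp90b1*, which was higher, against 12.6% of all genes, 7.3% lower and 5.3% higher. The fold change was positive for 18 members and negative for 24 (51.2% and 48.8% of all tested genes), and the median log2 fold change was −0.011 over the members and 0.0097 over all tested genes. The p-values measure the spread between these libraries, which the labels do not tie to separate animals. In these bulk libraries, fewer cells of a type and less RNA per cell cannot be told apart.

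The data also bounded how far the members could differ. The fitted change in edgeR exceeded 1.5-fold for 0 members and for 14.9% of all tested genes. *Kdelr3* was just inside this bound, at −0.580 on the log2 scale, and was past it in DESeq2, at −0.591. The 95% interval of the fold change lay inside 1.5-fold in either direction for 35 members (83.3%), against 44.5% of all tested genes. The members whose interval reached further were *Kdelr3*, *Hsp90b1*, *Sdf2l1*, *Syvn1*, *Chac1*, *Sec61a1* and *Sec24d*. Within 2-fold lay the interval of 41 members, all but *Kdelr3*, against 68% of all genes. The members were also more abundant and less variable than the tested genes as a whole, with a median level of 74.8 CPM against 14.4 CPM and a median SE of the log2 fold change of 0.13 against 0.18. The median coefficient of variation of the members was 12.9% within WT and 10.6% within CharmeKO.

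**Figure D1:**
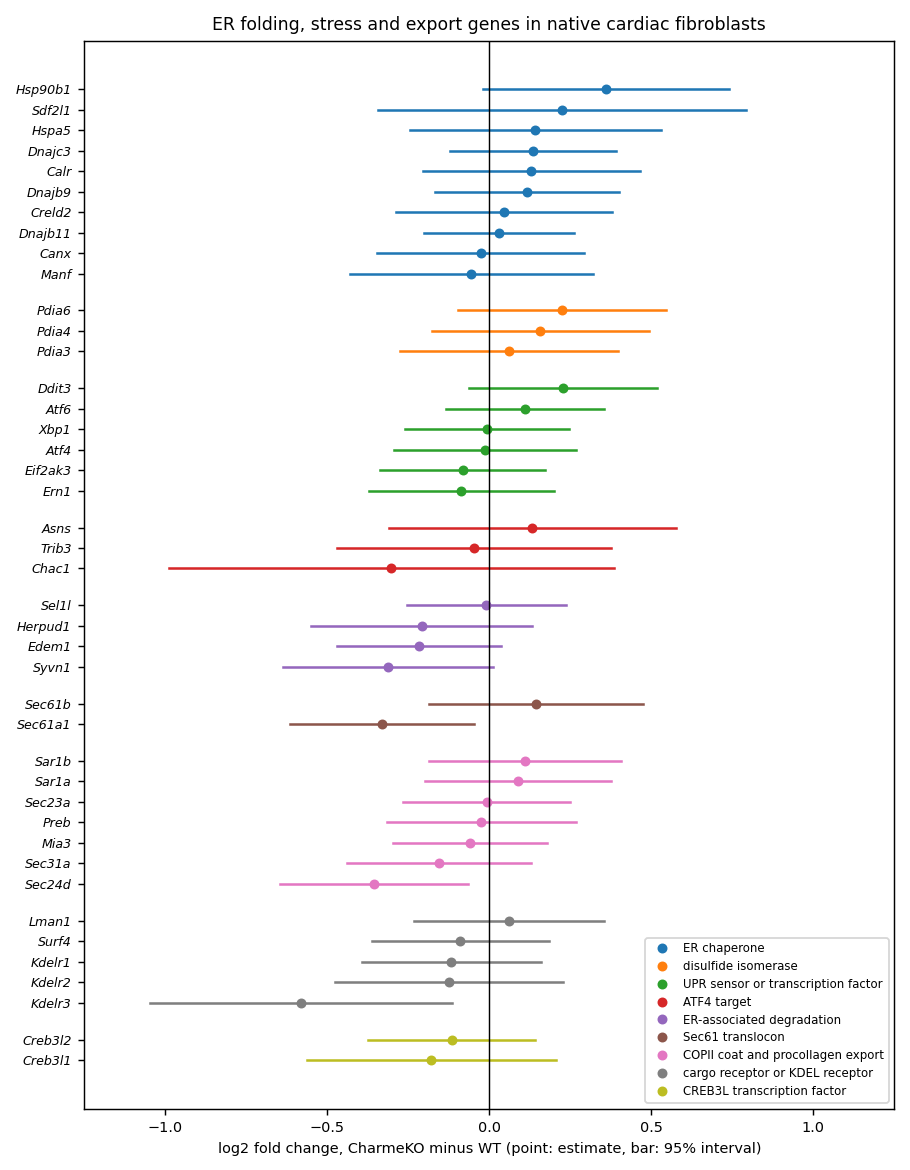
Log2 fold change of each of the 42 members, CharmeKO minus WT, with its 95% interval from edgeR (n = 3 libraries per group), coloured by role. The interval of *Kdelr3*, −1.05 to −0.11, and those of *Sec24d* and *Sec61a1* exclude 0, and that of *Hsp90b1* reaches furthest upward among the chaperones apart from *Sdf2l1*.

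Per kilobase of the longest transcript, *Hspa5*, which encodes BiP, was the most abundant member, at 259 ± 37.4 in WT and 286 ± 65.0 in CharmeKO (SD, n = 3) CPM per kb. *Calr*, which encodes calreticulin, followed at 216 ± 36.3 in WT and 236 ± 26.2 in CharmeKO (SD, n = 3), and the mean ± SD ranges of these 2 genes overlapped. *Atf4*, the transcription factor of the integrated stress response, stood at 165 ± 11.2 in WT and 163 ± 18.5 in CharmeKO (SD, n = 3), and *Pdia3*, the isomerase that works with calreticulin and calnexin, at 124 ± 22.8 in WT and 129 ± 12.3 in CharmeKO (SD, n = 3). The translational control of *Atf4* is not measured by its mRNA. At the low end, *Ern1*, which encodes the sensor IRE1, was at 4.56 ± 0.614 in WT and 4.30 ± 0.171 in CharmeKO (SD, n = 3), and *Chac1*, a glutathione degrading enzyme, was at 2.30 ± 0.896 in WT and 1.90 ± 0.140 in CharmeKO (SD, n = 3). With the median transcript length in place of the longest, *Atf4* moved from position 3 to position 12 of the 42, while *Hspa5*, *Calr* and *Chac1* kept positions 1, 2 and 42.

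**Figure D2:**
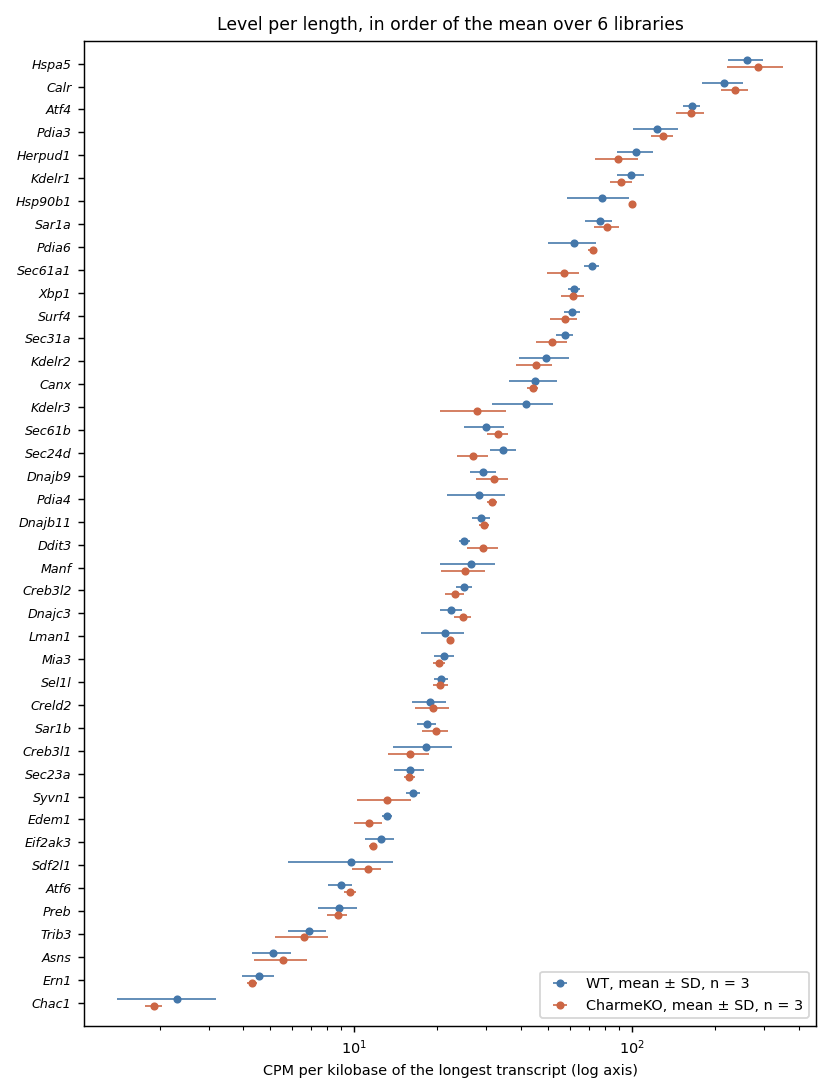
Level of each member in CPM per kilobase of the longest transcript (log axis), as mean ± SD of 3 WT and 3 CharmeKO libraries, ordered by the mean over all 6 libraries. The levels run from 2.10 for *Chac1* to 273 for *Hspa5*, and the error bars of WT and CharmeKO do not overlap for *Hsp90b1*, which is higher in CharmeKO, and for *Sec61a1* and *Sec24d*, which are lower.

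The chaperones did not pass the test in either direction. Of the 10, 8 had a positive and 2 a negative fold change, the median log2 fold change was 0.12 and 0 passed the test. The sign turned when 1 library was left out for *Hspa5*, *Calr*, *Canx*, *Dnajb11*, *Sdf2l1*, *Creld2* and *Manf*. *Hspa5* was at 1005, 797 and 1056 CPM in WT replicates 1, 2 and 3 and at 914, 912 and 1326 CPM in CharmeKO replicates 1, 2 and 3, the order in which the libraries are given below for each gene. CharmeKO replicate 3 was the highest library and the other 2 CharmeKO libraries lay within the range of WT. The log2 fold change of 0.14 ± 0.18 (SE) had an adjusted p of 0.798 (edgeR) and turned to −0.062 without CharmeKO replicate 3.

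*Hsp90b1*, which encodes Grp94, the ER Hsp90 that folds integrins and Toll-like receptors, was at 276, 179.5 and 301 CPM in WT and 320.3, 319.8 and 331 CPM in CharmeKO. It was 1 of 2 members whose 3 CharmeKO libraries all exceeded the 3 WT libraries, the other being *Ddit3*, where such separation upward was found for 9.58% of all tested genes and downward for 8.59%, 18.2% in all. WT replicate 2 was far below the other 5 libraries, and the means were 252 ± 64.1 CPM in WT and 324 ± 6.05 CPM in CharmeKO (mean ± SD of 3 libraries each). The log2 fold change was 0.36 ± 0.17 (SE) with an unadjusted p of 0.0602 and an adjusted p of 0.415 in edgeR, and without WT replicate 2 it was 0.16. Exons of *Gm15344* and *Gm25745* overlap *Hsp90b1* on the same strand in GENCODE M21.

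*Calr* was at 492, 383 and 538 CPM in WT and 501, 467 and 579 CPM in CharmeKO, with WT replicate 2 lowest and CharmeKO replicate 3 highest, and a log2 fold change of 0.13 ± 0.15 (SE). *Dnajc3*, an ER cochaperone of BiP also known as P58IPK, was at 120.5, 103.3 and 122 CPM in WT and 125, 136 and 118 CPM in CharmeKO. The highest of these values was CharmeKO replicate 2 and the lowest WT replicate 2, and the log2 fold change was 0.14 ± 0.12 (SE). The adjusted p of both genes in edgeR was over 0.5, at 0.785 and 0.688. The other 6 chaperones had log2 fold changes from −0.056 for *Manf*, whose exon overlaps *Rbm15b*, to 0.23 for *Sdf2l1*, a BiP cofactor, and they included *Canx*, which encodes calnexin, at −0.027, the BiP cochaperones *Dnajb9* at 0.12 and *Dnajb11* at 0.029, and *Creld2*, a secreted stress protein, at 0.045.

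The 3 disulfide isomerases had positive fold changes, with a median of 0.16 on the log2 scale, and 0 passed the test. *Pdia6*, an isomerase found in complex with BiP, was at 144, 105.1 and 155 CPM in WT and 151, 158 and 163 CPM in CharmeKO, with a log2 fold change of 0.22 ± 0.15 (SE) and an adjusted p of 0.565 (edgeR). WT replicate 2 lay below the other 5 libraries and WT replicate 3 lay among the CharmeKO values. *Pdia4*, which overlaps *Mir704*, was at 65.4, 53.1 and 85.3 CPM in WT and 74.8, 72.7 and 78.6 CPM in CharmeKO, with a log2 fold change of 0.16 ± 0.15 (SE). Its 3 CharmeKO values fell inside the WT range. *Pdia3* was at 363, 273 and 394 CPM in WT and 373, 319 and 382 CPM in CharmeKO, with a log2 fold change of 0.061 ± 0.15 (SE) that became −0.082 without WT replicate 2.

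WT replicate 2 was the lowest WT library for 9 of the 10 chaperones and for all 3 isomerases, and for 27 of the 42 members. CharmeKO replicate 3 was the highest CharmeKO library for 7 chaperones, all 3 isomerases and 29 of the 42 members. WT replicate 2 also had the highest sum of dissociation response genes, and its part in these values was not tested.

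**Figure D3:**
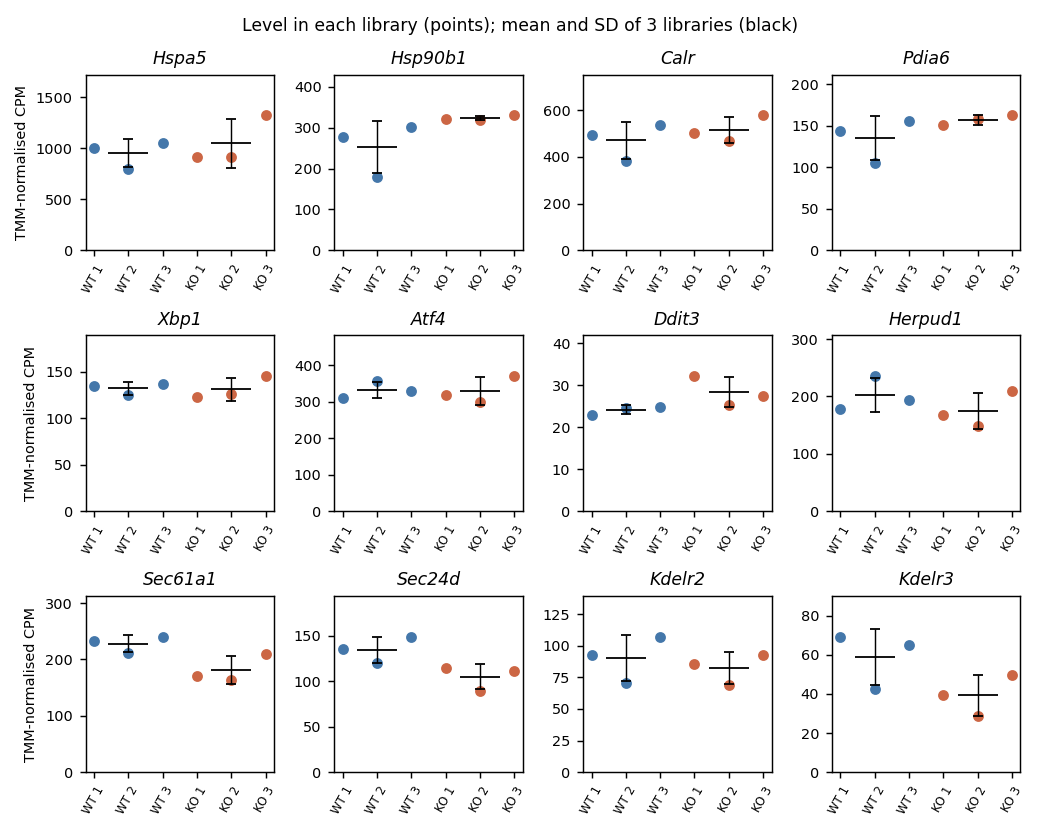
TMM-normalised CPM of selected members in each library (points, WT in blue, CharmeKO, marked KO, in red), with the mean and SD of the 3 libraries of each group in black. Each axis starts at 0. *Sec61a1* and *Sec24d* lie lower in all 3 CharmeKO libraries than in any WT library, and WT replicate 2 lies lowest for *Hspa5*, *Hsp90b1*, *Calr* and *Pdia6*.

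Transcripts of the 3 UPR sensors did not pass the test in either direction. *Ern1* was at 28.4, 36.5 and 30.1 CPM in WT and 30.1, 30.9 and 28.6 CPM in CharmeKO, and its log2 fold change of −0.087 ± 0.13 (SE) turned to 0.030 without WT replicate 2, the highest library. *Eif2ak3*, which encodes PERK, was at 50.9, 54.2 and 63.9 CPM in WT and 55.0, 52.6 and 51.5 CPM in CharmeKO, with a log2 fold change of −0.082 ± 0.12 (SE). *Atf6* was at 70.8, 58.1 and 66.2 CPM in WT and 66.7, 70.3 and 73.6 CPM in CharmeKO, with a log2 fold change of 0.11 ± 0.11 (SE). WT and CharmeKO libraries overlapped for all 3 genes, and the adjusted p-values in edgeR were 0.833, 0.825 and 0.748.

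The transcription factors downstream were near equal between the groups in *Xbp1* and *Atf4*. *Xbp1*, the substrate of IRE1, was at 135, 124 and 136 CPM in WT and 123, 126 and 145 CPM in CharmeKO, and its log2 fold change of −0.0067 ± 0.12 (SE) had a 95% interval of −0.26 to 0.25. *Atf4* was at 312, 357 and 329.5 CPM in WT and 319, 298 and 371 CPM in CharmeKO, with a log2 fold change of −0.013 ± 0.13 (SE) and an interval of −0.29 to 0.27. The direction of both was set by single libraries, as it turned when any of several libraries was left out. Reads summed over the gene do not separate the spliced from the unspliced form of *Xbp1*, which IRE1 produces.

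*Ddit3*, which encodes CHOP, the factor of prolonged ER stress, was at 23.0, 24.7 and 24.9 CPM in WT and 32.2, 25.2 and 27.5 CPM in CharmeKO. The 3 CharmeKO values exceeded the 3 WT values, with CharmeKO replicate 2 within 1 CPM of WT replicate 3. The log2 fold change was 0.23 ± 0.13 (SE), with an unadjusted p of 0.112 and an adjusted p of 0.506 (edgeR).

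The 3 ATF4 targets held positions 39, 40 and 42 of the 42 in level per length, and 0 passed the test. *Trib3*, a pseudokinase that binds ATF4, was at 11.8, 16.2 and 13.8 CPM in WT and 14.0, 10.3 and 16.1 CPM in CharmeKO, with a log2 fold change of −0.046 ± 0.19 (SE). *Asns*, which makes asparagine, was at 10.97, 8.44 and 11.5 CPM in WT and 14.0, 9.36 and 10.3 CPM in CharmeKO, with a log2 fold change of 0.13 ± 0.20 (SE) that turned to −0.057 without CharmeKO replicate 1. *Chac1* was at 3.48, 5.36 and 2.47 CPM in WT and 2.90, 3.35 and 3.09 CPM in CharmeKO, which is as few as 23 counts in WT replicate 3. WT replicate 2 was the highest library for *Trib3* and *Chac1* and the lowest for *Asns*, and the interval of *Chac1*, −0.99 to 0.38 around −0.30, was the widest of the 42.

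All 4 genes of ER-associated degradation had negative fold changes, with a median of −0.21 on the log2 scale, and 0 passed the test. *Syvn1*, which encodes the ubiquitin ligase HRD1, was at 64.6, 64.5 and 71.1 CPM in WT and 50.3, 43.8 and 66.7 CPM in CharmeKO, with a log2 fold change of −0.31 ± 0.15 (SE), an unadjusted p of 0.0574 and an adjusted p of 0.410 in edgeR. Replicates 1 and 2 of CharmeKO lay below every WT library, while CharmeKO replicate 3 lay among them. *Edem1*, a lectin that directs misfolded glycoproteins to degradation, was at 77.2, 79.1 and 83.9 CPM in WT and 68.4, 61.0 and 77.1 CPM in CharmeKO, with a log2 fold change of −0.22 ± 0.12 (SE) and an adjusted p of 0.466 (edgeR). Its groups did not overlap, with CharmeKO replicate 3 and WT replicate 1 within 1 CPM of each other.

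*Herpud1*, a scaffold of the HRD1 complex and a strong UPR target, was at 178, 236 and 194 CPM in WT and 168, 148 and 209 CPM in CharmeKO, with a log2 fold change of −0.21 ± 0.16 (SE) and an adjusted p of 0.625 (edgeR). WT replicate 2 was highest and CharmeKO replicate 2 lowest. *Sel1l*, the partner of HRD1, was at 128, 124 and 138 CPM in WT and 122, 138 and 128 CPM in CharmeKO, with a log2 fold change of −0.0087 ± 0.11 (SE) and overlapping groups.

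*Sec61a1*, the channel-forming subunit of the translocon, was at 233, 211 and 240.0 CPM in WT and 171, 164 and 209 CPM in CharmeKO. All 3 CharmeKO libraries were below the lowest WT library, CharmeKO replicate 3 by the smallest margin, and the means were 228 ± 14.9 CPM in WT and 181 ± 24.3 CPM in CharmeKO (mean ± SD of 3 libraries each). The log2 fold change was −0.33 ± 0.13 (SE) with an unadjusted p of 0.0266, and the adjusted p was 0.317 in edgeR and 0.200 in DESeq2. It ranged from −0.45 to −0.26 with each library left out and was −0.29 with a term for the *Xist* and Y-linked split. *Sec61b*, a small subunit of the same channel, was at 24.3, 17.6 and 22.8 CPM in WT and 24.3, 21.5 and 25.5 CPM in CharmeKO, with a log2 fold change of 0.14 ± 0.15 (SE). The direction thus differed between the subunits, although 22.8% of the *Sec61b* transcript is shared with *Gm10320* at 97% identity or more and the difference between the genes was not tested.

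Of the 7 COPII and procollagen export genes, 2 had a positive and 5 a negative fold change, with a median of −0.024 on the log2 scale, and 0 passed the adjusted threshold. *Sec24d*, a cargo adaptor of the inner coat whose loss impairs procollagen export, was at 135, 120.1 and 149 CPM in WT and 114, 89.6 and 112 CPM in CharmeKO. The groups did not overlap, at means of 135 ± 14.4 CPM in WT and 105.2 ± 13.5 CPM in CharmeKO (mean ± SD of 3 libraries each), and CharmeKO replicate 2 was the lowest. The log2 fold change was −0.36 ± 0.13 (SE), with an unadjusted p of 0.0207 and an adjusted p of 0.293 in edgeR and 0.198 in DESeq2. It stayed negative with each library left out, from −0.43 to −0.25.

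*Sec31a*, of the outer coat, was at 229, 240.2 and 262 CPM in WT and 215, 193 and 248 CPM in CharmeKO, with a log2 fold change of −0.15 ± 0.13 (SE) and overlapping groups. *Sar1a*, the GTPase that starts coat assembly, was at 224, 179.9 and 197 CPM in WT and 214, 191 and 235 CPM in CharmeKO, with a log2 fold change of 0.090 ± 0.13 (SE). Both adjusted p-values in edgeR, 0.677 and 0.829, missed the threshold. The remaining genes had log2 fold changes of −0.058 for *Mia3*, which encodes the procollagen receptor TANGO1, −0.024 for *Preb*, the exchange factor of SAR1, −0.0071 for *Sec23a*, the partner of the SEC24 proteins, and 0.11 for *Sar1b*. *Preb* shares 25.3% of its transcript with *Abhd1* at 97% identity or more.

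*Kdelr3*, a KDEL receptor that returns escaped ER proteins from the Golgi, had the largest fold change of the 42 members. It was at 69.2, 42.5 and 65.0 CPM in WT and 39.4, 28.7 and 49.8 CPM in CharmeKO. CharmeKO replicate 3 exceeded WT replicate 2, so the groups overlapped, while the other 2 libraries of each group were apart. The means were 58.9 ± 14.4 CPM in WT and 39.3 ± 10.6 CPM in CharmeKO (mean ± SD of 3 libraries each), and the log2 fold change was −0.58 ± 0.21 (SE) with an interval of −1.05 to −0.11. The unadjusted p was 0.0190, and the adjusted p was 0.289 in edgeR and 0.145 in DESeq2. The adjusted p in edgeR was 0.00185 when genes of low counts were kept in the fit, and it was 0.0524 or more with each library left out. The fold change ranged from −0.79 to −0.40 over those fits.

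*Kdelr1*, the KDEL receptor with the highest level per length, was at 142, 178 and 158 CPM in WT and 139, 140.2 and 162 CPM in CharmeKO, with a log2 fold change of −0.12 ± 0.13 (SE), and WT replicate 2 was its highest library, whereas it was the lowest WT library for *Kdelr3*. *Surf4*, a receptor that speeds the export of soluble cargo, was at 192, 194 and 215 CPM in WT and 192, 166 and 207 CPM in CharmeKO, with a log2 fold change of −0.090 ± 0.12 (SE). Groups overlapped for both, and the adjusted p-values in edgeR were 0.764 and 0.821. The other receptors were *Kdelr2* at −0.13 and *Lman1*, the lectin receptor ERGIC-53, at 0.061 on the log2 scale.

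*Creb3l2* and *Creb3l1* encode transcription factors that are cleaved in the Golgi and drive genes of the secretory pathway, *Creb3l1* being known for its part in collagen production by bone cells. *Creb3l1* was at 38.3, 43.5 and 59.9 CPM in WT and 33.5, 45.7 and 45.2 CPM in CharmeKO, and its log2 fold change of −0.18 ± 0.18 (SE) turned to 0.018 without WT replicate 3, the highest library. *Creb3l2* was at 165, 177 and 189 CPM in WT and 149, 174 and 167 CPM in CharmeKO, with a log2 fold change of −0.12 ± 0.12 (SE). Groups overlapped for both genes, with adjusted p-values of 0.738 and 0.748 in edgeR.

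A ratio of 2 genes within a library does not depend on its depth, and 6 such pairs were compared. The log2 ratio of *Kdelr2* to *Kdelr3* counts was 0.42, 0.74 and 0.72 in the WT libraries and 1.12, 1.26 and 0.90 in the CharmeKO libraries, in the order of the replicates. The groups did not overlap and differed by 0.47, which is p = 0.1 in a two-sided exact permutation test, the smallest p that 3 libraries against 3 allow, and 0.6 after Benjamini-Hochberg adjustment over the 6 pairs. The ratio of *Sar1a* to *Sar1b*, GTPases of the same step, was 3.19 ± 0.061 in WT and 3.17 ± 0.11 in CharmeKO (SD, exact permutation p = 0.8). The ratios of *Kdelr1* to *Kdelr2* and of *Creb3l1* to *Creb3l2* differed by 0.0057 and −0.061, with the groups overlapping. That of *Hspa5* to *Hsp90b1* was 1.94 ± 0.18 in WT and 1.68 ± 0.28 in CharmeKO (SD, exact permutation p = 0.3). For *Ddit3* to *Atf4* it was −3.78 ± 0.065 and −3.54 ± 0.22 (SD, exact permutation p = 0.2). Adjusted over the 6 pairs, these p-values were 0.6 to 1.

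By library, the median deviation of the chaperones from their 6-library means on log2(CPM + 1) was lowest in WT replicate 2, at −0.27, and highest in CharmeKO replicate 3, at 0.21. The genes of ER-associated degradation were lowest in CharmeKO replicate 2, at −0.30, while CharmeKO replicate 3, at 0.11, was within the range of WT. The members took 0.592%, 0.491% and 0.610% of all counts in WT replicates 1, 2 and 3 and 0.601%, 0.562% and 0.637% in CharmeKO replicates 1, 2 and 3, so these shares overlapped.

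**Figure D4:**
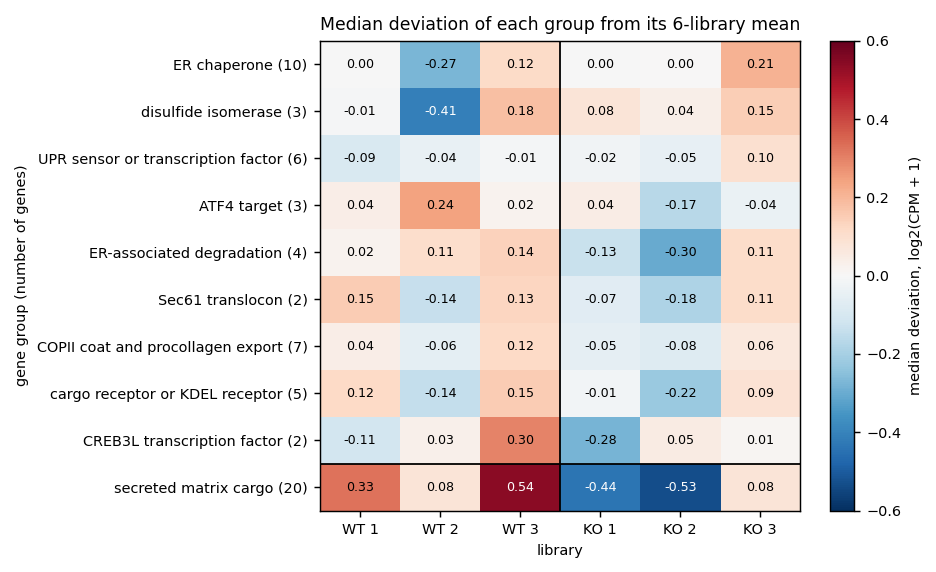
Median deviation of each group of members, and below the line of the 20 secreted matrix cargo genes, from the 6-library mean of each gene, on log2(CPM + 1), in each library (KO, CharmeKO). The values differ more between libraries of a group than between groups for the chaperones, while the matrix cargo is at −0.44 and −0.53 in CharmeKO replicates 1 and 2 at 0.33 and 0.54 in WT replicates 1 and 3, and near equal in CharmeKO replicate 3, at 0.076, and WT replicate 2, at 0.078.

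The sign of the fold change could be set beside the motifs shown above. Of the 8 members with an ERSE, 6 had a positive and 2 a negative fold change, from −0.31 for *Syvn1* to 0.36 for *Hsp90b1* on the log2 scale. The 3 members with a UPRE, *Kdelr3*, *Sec23a* and *Sec24d*, had negative values from −0.58 to −0.0071. Of the 5 with the ATF4 element, 1 was positive and 4 were negative, from −0.30 for *Chac1* to 0.13 for *Asns*. Over all tested genes, 51.2% were positive and 48.8% negative. The sign of *Hspa5*, *Calr*, *Canx*, *Creld2*, *Sec23a*, *Asns*, *Chac1* and *Trib3* turned when 1 library was left out. None of the genes with a motif passed the adjusted threshold, and a match of letters is not evidence of binding.

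The cargo of this pathway had larger fold changes than its machinery. All 20 secreted matrix genes listed had a negative fold change, with a median of −0.61 on the log2 scale, 1 of them, *Eln*, which encodes elastin, passed the adjusted threshold of edgeR and 10 that of DESeq2. The list was chosen with these results known, and is not independent evidence of a direction. For every 100 counts of these 20 genes, the 10 chaperones and 3 isomerases had 3.86, 3.47 and 3.51 counts in WT replicates 1, 2 and 3 and 6.75, 6.59 and 5.25 in CharmeKO replicates 1, 2 and 3. The 7 COPII members had 1.05, 1.13 and 0.918 counts per 100 in WT and 1.73, 1.59 and 1.23 in CharmeKO, in the same order. In both ratios every CharmeKO library exceeded every WT library, with CharmeKO replicate 3 nearest to WT. The ratios were computed after the values were seen and carry no test. The summed level of the chaperones alone overlapped between the groups, at 1836 to 2506 CPM in WT and 2256 to 2808 CPM in CharmeKO. That of the COPII members overlapped as well, at 741 to 823 CPM in WT and 678 to 803 CPM in CharmeKO. The matrix genes, by which both ratios divide, summed to 65363 to 89584 CPM in WT and 42553 to 65308 CPM in CharmeKO. With this lower divisor, the higher ratios do not show a rise of the machinery.

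**Figure D5:**
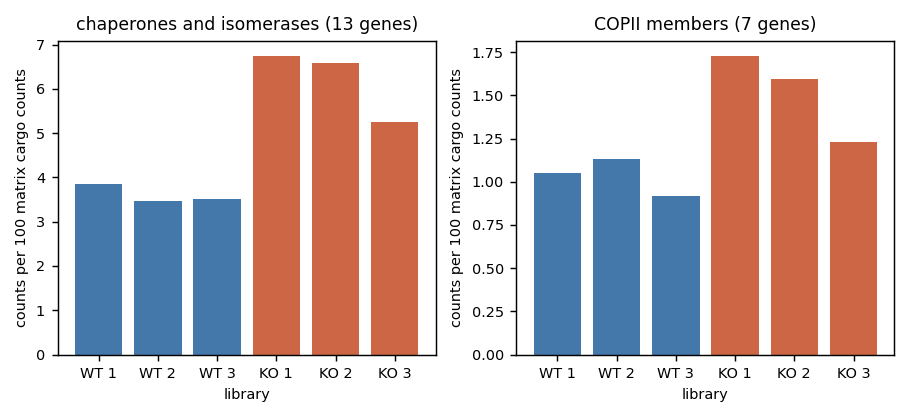
Counts of the 13 chaperones and isomerases (left) and of the 7 COPII members (right) per 100 counts of the 20 secreted matrix cargo genes, in each library (WT in blue, CharmeKO, marked KO, in red). The bars run from 3.47 to 3.86 in WT and from 5.25 to 6.75 in CharmeKO on the left, and from 0.918 to 1.13 and from 1.23 to 1.73 on the right. The summed level of the matrix genes, the divisor of both ratios, was lower in CharmeKO.

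Other genes of the same steps were read from 6 wider lists. Of 32 other ER folding genes, 24 had a positive and 8 a negative fold change, with a median of 0.086 and 0 past the adjusted threshold. *Mesd*, a chaperone of LDL receptor family proteins, was at 33.2, 31.4 and 30.6 CPM in WT and 40.4, 41.6 and 40.1 CPM in CharmeKO, with a log2 fold change of 0.36 ± 0.11 (SE) and an adjusted p of 0.208 (edgeR). Of 22 other genes of ER-associated degradation, 7 were positive and 15 negative, with a median of −0.10, and 0 passed. Of 32 translocation and glycosylation genes, 20 were positive and 12 negative, with a median of 0.034, and 0 passed.

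Of 32 other COPII and export genes, 14 were positive and 18 negative, with a median of −0.023 and 0 past the adjusted threshold. Those at an unadjusted p under 0.05 were *Scfd1*, a SNARE regulator, with a positive value, and *Sec16a*, the scaffold of ER exit sites, *Sec24a*, *Sec24b* and *Lman2l* with negative values. The adaptors *Sec24a* and *Sec24b*, paralogs of *Sec24d*, had log2 fold changes of −0.40 ± 0.14 (SE) and −0.30 ± 0.10 (SE), with adjusted p-values of 0.278 and 0.264 in edgeR. *Sec24b* was at 88.8, 99.1 and 94.7 CPM in WT and 76.4, 73.3 and 79.7 CPM in CharmeKO, with no overlap of the groups.

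Of 14 genes of the COPI coat, which carries KDEL receptors back to the ER, and of its regulators, 7 were positive and 7 negative. Of these genes 1, a regulator, passed the threshold. This was *Arfgap3*, a GTPase activating protein that promotes uncoating of COPI vesicles, at 36.5, 35.5 and 41.3 CPM in WT and 91.1, 80.6 and 87.2 CPM in CharmeKO. Each CharmeKO library exceeded each WT library, and the log2 fold change was 1.20 ± 0.11 (SE) with an adjusted p of 0.000227 in edgeR, and of 0.000476 to 0.00359 with each library left out. The related *Arfgap1* had a log2 fold change of −0.28, with an adjusted p of 0.372 (edgeR).

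Of 33 other genes of the integrated stress response, 13 were positive and 20 negative, with a median of −0.092, and 0 passed in edgeR. At an unadjusted p under 0.05 in edgeR, 8 were lower and 0 higher, against 6.87% lower and 5.9% higher of all tested genes. The list was chosen with earlier results of these data known, and is not independent evidence of a direction. DESeq2 called 2 of the 33 lower, where it called 2.5% of all tested genes in either direction. *Slc7a5*, the leucine transporter, was at 43.4, 43.8 and 61.3 CPM in WT and 28.0, 20.4 and 36.2 CPM in CharmeKO, with a log2 fold change of −0.80 ± 0.20 (SE) and an adjusted p of 0.126 in edgeR and 0.00953 in DESeq2. *Gdf15*, a secreted stress cytokine, was at 56.7, 40.1 and 50.7 CPM in WT and 25.6, 24.5 and 37.3 CPM in CharmeKO, with a log2 fold change of −0.75 ± 0.18 (SE) and an adjusted p of 0.104 in edgeR and 0.00802 in DESeq2. For both genes every CharmeKO library was below every WT library. The rest of the 8 were *Cebpb*, *Ppp1r15b*, *Psat1*, *Mthfd2*, *Fgf21* and *Stc2*. Their log2 fold changes were −0.44, −0.32, −0.66, −0.83, −1.88 and −0.71, with adjusted p-values of 0.284 to 0.391 in edgeR. *Atf4* itself and the member targets *Trib3*, *Asns* and *Chac1* overlapped between the groups, with log2 fold changes of −0.013, −0.046, 0.13 and −0.30.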

How the data were processed

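Native CFs were profiled in 3 WT and 3 CharmeKO libraries (directional, poly(A) selected), grouped by the labels. The authors aligned filtered reads with STAR to GRCm39, counted them on Ensembl genes with *Charme* added and kept the "reverse" strand column, and the deposited values are these raw counts, without normalization or gene filter. The methods name an Ensembl release that predates GRCm39, the labels also list GRCh38 and DESeq2, and tool versions are not given in the sources used here. All count columns were used, and all replicates differed beyond sampling noise.

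The 15789 genes that reached 10 counts in 2 or more libraries were tested with edgeR 4.0.16 in R 4.3.3, as CPM after TMM normalization over the full library total, by the quasi-likelihood test with Benjamini-Hochberg adjustment over all tested genes and a threshold of 0.05. SEs were derived from the F statistics. Procedures were tested on simulated data. The members and lists were chosen with earlier results of these data known. Values in every library are given for any member called, for every sensor, transcription factor and ATF4 target, and in the other groups for the 2 most abundant members and the 2 with the lowest unadjusted p, with all of a group of 4 or fewer, 30 members in all. From the wider lists, genes called by edgeR or DESeq2 are named. *Mesd*, *Arfgap1*, *Sec24a* and *Sec24b* and the other list members named were chosen after their values were seen. Lengths and overlaps came from GENCODE M21 and promoters from RefSeq, both on GRCm38, another build than the counts, so no positions on the authors' build are given. The alternatives were DESeq2 1.42.0, its size factors, no gene filter, the replicate number as a block, a term for the *Xist* and Y-linked split, each library left out and, for levels, the median transcript length. Figures were drawn with matplotlib 3.10.9.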

Additional observations from a re-analysis of the deposited data

How the results depend on the processing

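Over all tested genes, 66 were called higher and 65 lower in CharmeKO. DESeq2 called 154 and 240, the fit without a gene filter 253 and 446, and leaving out 1 library gave 35 to 131 and 26 to 218, with the most calls without WT replicate 2 and the fewest without CharmeKO replicate 1. Among the members, 0 were called lower, against 1, *Kdelr3*, without a gene filter. Members at an unadjusted p under 0.05 numbered 0 higher and 3 lower, against 1 higher in DESeq2 and 1 without a filter, and 0 to 3 higher and 0 to 6 lower with each library left out, with 3 higher and 0 lower without WT replicate 3, 0 lower without CharmeKO replicate 2, 1 lower without WT replicate 1 and 6 lower without CharmeKO replicate 3. Without a filter, 1 other translocation gene was called higher. For the other integrated stress response, 0 called lower became 2 in DESeq2, 4 without a filter and 0 to 2 without 1 library. Medians ranged without 1 library from −0.20 to 0.11 for the ATF4 targets, −0.14 to −0.052 for other ER-associated degradation and −0.21 to −0.038 for the other integrated stress response. The sign turned without 1 library for several members. Their log2 fold changes ranged from −0.057 to 0.25 for *Asns*, −0.11 to 0.056 for *Atf4*, −1.05e-05 to 0.24 for *Calr*, −0.50 to 0.027 for *Chac1*, −0.31 to 0.018 for *Creb3l1*, −0.15 to 0.014 for *Eif2ak3*, −0.16 to 0.030 for *Ern1*, −0.062 to 0.24 for *Hspa5*, −0.082 to 0.17 for *Pdia3*, −0.054 to 0.038 for *Sel1l*, −0.20 to 0.11 for *Trib3* and −0.087 to 0.043 for *Xbp1*, and among the members given by range from −0.16 to 0.12 for *Canx*, −0.027 to 0.078 for *Dnajb11*, −0.040 to 0.52 for *Sdf2l1*, −0.055 to 0.16 for *Creld2*, −0.22 to 0.12 for *Manf*, −0.11 to 0.049 for *Sec23a*, −0.11 to 0.11 for *Preb*, −0.10 to 0.0088 for *Mia3*, −0.27 to 0.011 for *Kdelr2* and −0.077 to 0.18 for *Lman1*. With the term for the *Xist* and Y-linked split, *Atf4*, *Trib3*, *Xbp1*, *Manf* and *Preb* turned to 0.050, 0.066, 0.018, 0.015 and 0.044. The differences in log2 ratio ranged from −0.15 to 0.077 for *Creb3l1* to *Creb3l2*, −0.13 to 0.25 for *Kdelr1* to *Kdelr2* and −0.074 to 0.029 for *Sar1a* to *Sar1b*. With the median transcript length, the level per length moved for 25 of the 30 members. The causes were not tested.

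The groups share replicate numbers, and the deviations of same-numbered libraries correlated at 0.216, 0.0535 and 0.161. Every library correlated best with its own number, but the correlations were weak and the labels do not name pairs. The numbers were not taken as pairs in the main fit, and these values do not settle whether they are. With the replicate number as a block, 115 genes were called higher and 187 lower, 1 member, *Kdelr3* (log2 fold change −0.59, adjusted p = 0.0309 in edgeR), was called lower, 1 member was higher at an unadjusted p under 0.05, and 3 other integrated stress response genes were called lower. WT replicate 3, with 9595701 counts, was the shallowest library, with 23 counts of *Chac1*.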

Other observations

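The secretory pathway genes outside the members that stood at an unadjusted p under 0.05 had values in both directions. *Sec61g*, a small subunit of the translocon, was at 40.3, 46.5 and 54.8 CPM in WT and 59.7, 78.4 and 52.6 CPM in CharmeKO, with a log2 fold change of 0.44 ± 0.16 (SE) and an adjusted p of 0.291 (edgeR). *Spcs2*, of the signal peptidase, and *Srp19*, of the signal recognition particle, had values of 0.29 ± 0.13 (SE) and 0.39 ± 0.16 (SE), while *Stt3b*, a catalytic subunit of the oligosaccharyltransferase, had −0.28 ± 0.11 (SE). In ER-associated degradation, *Derl2*, of the retrotranslocation channel, was at 22.1, 18.4 and 21.5 CPM in WT and 26.2, 26.0 and 26.4 CPM in CharmeKO, and *Ube2j1*, its ubiquitin conjugating enzyme, at 81.5, 92.6 and 81.8 CPM in WT and 67.4, 67.1 and 77.6 CPM in CharmeKO. The groups did not overlap for either gene, and the adjusted p-values in edgeR were 0.292 and 0.340. *Ppp1r15b*, the constitutive partner of the phosphatase that reverses eIF2α phosphorylation, was at 167, 184 and 158 CPM in WT and 127, 139.5 and 142 CPM in CharmeKO, with a log2 fold change of −0.32 ± 0.12 (SE) and an adjusted p of 0.284 (edgeR). These genes were chosen after their values were seen.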
